A study of Sus scrofa with 12 samples.

Results

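The polyamine synthesis genes are 10 genes of the pig that make, break down or control the polyamines: ODC1, OAZ1, OAZ2, AZIN1, AZIN2, AMD1, SRM, SMS, SAT1 and AGMAT. They were taken by symbol, as the genes of the deposited table whose name equals a listed one, which gave 10 of the 20674 genes. RNA-seq was run on endometrium of Landrace × Yorkshire sows fed 1 of 4 diets from breeding through the 114 days of gestation. The groups differed in crude fiber and in N-carbamylglutamate (NCG), an analog of N-acetylglutamate that activates the synthesis of arginine. L − N sows, the basal control, received a low-fiber (LF) diet with 3.73% crude fiber and no NCG. L + N sows received the LF diet with 0.05% NCG. H − N sows received a high-fiber (HF) diet with 7.46% crude fiber and no NCG, and H + N sows the HF diet with 0.05% NCG. Each group had 3 libraries, 12 in all. They were assigned by reading the letter codes of their titles as the 4 diets, which no other label spells out, so every group value rests on that reading. The labels do not state that each library came from a different animal, so the p-values measure the spread between these libraries.

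Polyamines are small positively charged molecules that bind nucleic acids and are needed for cell growth. Ornithine, made from arginine, is turned into putrescine, and aminopropyl groups from decarboxylated S-adenosylmethionine turn putrescine into spermidine and spermidine into spermine. In the uterus of pregnant pigs and sheep, arginine and polyamines are known for their part in the growth of the conceptus and placenta.

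The total counts per library ranged from 14369781 to 19309724. Values are CPM, the counts of a gene scaled to a common library size with TMM factors, which correct each library for differences in composition. A gene was called at an adjusted p under 0.05. All 7 genes on the list of endometrial markers were detected in all 12 libraries, with ESR1, the estrogen receptor, the most abundant at 409.8 to 1281 CPM, and the progesterone receptor gene PGR at 26.4 to 119 CPM. Some of these markers differed between groups by edgeR. ESR1 rose and ACP5, the gene of uteroferrin, fell in all 3 comparisons with L − N. HOXA10 rose in L + N and in H + N relative to L − N and with NCG pooled over fiber, as ESR1 did, and PGR rose in H + N against L − N. The markers of liver and kidney, where AGMAT is high, were led by APOA1 at 45.3 to 124 CPM. ALB reached at most 1.32 CPM, TTR at most 0.0672 CPM and UMOD at most 10.4 CPM. Of the placental markers, CYP19A1 had 0 counts in all libraries and CGA at most 0.981 CPM, while PAG2 and KRT7 were not in the table. GATA2 was the most abundant of them at 81.0 to 204 CPM.

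A few libraries stood apart from the others of their group. On the first principal component, with 26.7% of the variance, L − N replicates 2 and 3 scored 67.2 and 65.5, against 22.6 for L − N replicate 1 and values below 0 for the other 9 libraries. The control group that every comparison with L − N rests on was thus itself split. H − N replicate 3 and H + N replicate 3 had the lowest scores on the third principal component (-39.3 and -35.6) and the highest shares of counts in their 10 most abundant genes (9.41% and 9.09%). H + N replicate 3 held the highest or lowest value of 5 of the 9 tested members. H − N replicate 3 also had the highest sum of the 5 neutrophil markers, 172 CPM, with L + N replicate 1 at 101 CPM and the other 10 libraries at 4.73 to 49.6 CPM. L − N replicate 1 had the highest score on the third component, 43.2, and a sum of the 6 smooth muscle markers of 5197 CPM, against 797 to 2001 CPM in the other 11 libraries.

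Levels of different genes were compared as mean CPM per kb of gene length over the 12 libraries. These levels depend on the annotated gene lengths, which were 568 bases for SAT1, 1389 for OAZ1 and 3875 for SRM. SAT1 stood first at 1628 ± 585 CPM per kb (SD, n = 12), and OAZ1 came next at 233 ± 32.0. Without scaling to length, the means of SAT1 and OAZ1 were 925 and 323 CPM. SMS at 84.2 ± 12.3 and OAZ2 at 83.0 ± 12.6 did not differ beyond their spread, with SMS the higher of the pair in 7 of 12 libraries. AZIN1 followed at 52.7 ± 8.58, ODC1 at 43.5 ± 8.50 and AMD1 at 29.7 ± 7.07 CPM per kb. Each of these 3 was below the gene before it in 12 of 12 libraries. SRM at 4.93 ± 2.29 and AZIN2 at 2.85 ± 0.868 CPM per kb were within the larger SD of each other, and SRM was the higher in 11 of 12 libraries. AGMAT was last at 0.0848 ± 0.0702. The deposited FPKM values gave the same order for all 10 genes, but they rest on the same counts and gene lengths and are no independent check.

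**Figure D1:**
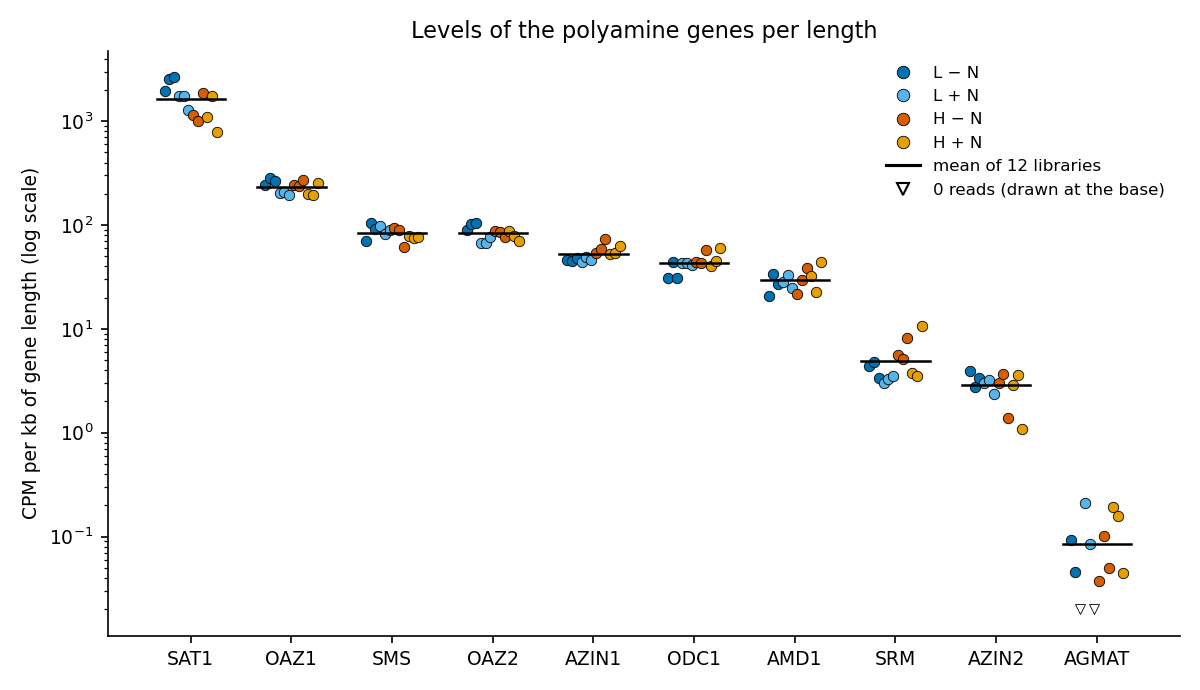
Level of each polyamine gene in CPM per kb of gene length (log axis), with a point for each of the 12 libraries, a line at their mean and triangles at the base for libraries with 0 reads. SAT1 lay above every other gene in all 12 libraries, and AGMAT was the lowest gene.

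ODC1 (gene ID 414408, chromosome 3, 126087013 to 126095644 on Sscrofa11.1) encodes ornithine decarboxylase, which makes putrescine from ornithine and is the first committed step of the pathway. In replicates 1 to 3 its level was 67.0, 96.1 and 67.1 CPM in L − N, and 94.0, 93.8 and 90.9 CPM in L + N. It was 96.6, 93.8 and 125 CPM in H − N, and 88.5, 98.4 and 131 CPM in H + N. L − N replicates 1 and 3 were the lowest of all libraries, the replicate 3 libraries of the HF groups were the highest, and L − N replicate 2 lay among the other groups. The L − N mean was 76.7 ± 16.7 (SD, n = 3), the L + N mean 92.9 ± 1.75, the H − N mean 105 ± 17.2 and the H + N mean 106 ± 21.98 CPM. ODC1 was 0.32 ± 0.129 (SE) higher on the log2 scale in HF than in LF, which did not pass by the quasi-likelihood F-test of edgeR with Benjamini-Hochberg adjustment over all genes tested (adjusted p = 0.206). Without H − N replicate 3 and H + N replicate 3 the log2 fold change was 0.16. H + N against L − N gave 0.46 ± 0.183 and also missed the threshold (the quasi-likelihood F-test of edgeR with Benjamini-Hochberg adjustment, adjusted p = 0.129). Leaving out H + N replicate 3 alone took this to 0.28, and leaving out L − N replicate 2 alone took it to 0.66.

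OAZ1 (gene ID 397034, chromosome 2, 76293142 to 76296626) and OAZ2 (gene ID 100144447, chromosome 1, 107325225 to 107338475) encode antizymes, which bind ornithine decarboxylase, block it and send it to the proteasome. The level of OAZ1 was 337, 391 and 372 CPM in L − N, and 284, 288 and 269.7 CPM in L + N. It was 334, 327 and 380.2 CPM in H − N, and 277, 271 and 349.6 CPM in H + N. All L + N libraries were below all L − N libraries, while in the HF diets H + N replicate 3 lay inside the range of H − N. The L − N mean was 367 ± 27.1, the L + N mean 280.4 ± 9.40, the H − N mean 347 ± 28.8 and the H + N mean 299 ± 43.9 CPM (SD, n = 3 each). With both diets pooled, OAZ1 was lower with NCG, at a log2 fold change of -0.30 ± 0.0884 (SE) that did not pass (the quasi-likelihood F-test of edgeR with Benjamini-Hochberg adjustment, adjusted p = 0.0646). It passed without H + N replicate 3, at -0.36 and an adjusted p of 0.0237 by the same edgeR test. Over the 18 settings with a recomputed fold change, that adjusted p ranged from 0.00818 by DESeq2 to 0.138 by edgeR.

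The level of OAZ2 was 90.0, 103 and 106 CPM in L − N, and 67.9, 66.7 and 76.8 CPM in L + N. It was 88.5, 85.2 and 77.8 CPM in H − N, and 89.0, 78.3 and 71.1 CPM in H + N. Every library of the other 3 groups was below every L − N library, by a narrow margin in H + N replicate 1, and H + N overlapped with H − N and L + N. The share of all genes that set L − N apart in this way is not given. The L − N mean was 99.7 ± 8.54, the L + N mean 70.5 ± 5.53, the H − N mean 83.8 ± 5.47 and the H + N mean 79.4 ± 9.02 CPM (SD, n = 3 each). OAZ2 fell in L + N against L − N, in 3 of 3 libraries, with a log2 fold change of -0.50 ± 0.117 (SE, the quasi-likelihood F-test of edgeR with Benjamini-Hochberg adjustment, adjusted p = 0.0244). It was the only call by this test among the 9 members tested in 9 comparisons. The call was lost when any of 5 libraries was left out, while the log2 fold change stayed between -0.45 and -0.55. The adjusted p of the edgeR test was then 0.0686 without L − N replicate 2, 0.101 without L − N replicate 3, and 0.0933, 0.108 and 0.0522 without L + N replicate 1, 2 or 3. Over the 18 settings with a recomputed fold change it ranged from 0.000914 (by DESeq2) to 0.108.

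On the HF diet, the log2 fold change of OAZ2 with NCG was -0.08 ± 0.117 (SE). The effect of NCG on the HF diet minus that on the LF diet was 0.42 ± 0.165 and did not pass (the quasi-likelihood F-test of edgeR with Benjamini-Hochberg adjustment, adjusted p = 0.331), so a difference between the diets was not shown. Pooled over both diets, NCG gave -0.29 ± 0.0825 for OAZ2 with an adjusted p of 0.0580 by the quasi-likelihood F-test of edgeR with Benjamini-Hochberg adjustment. Without L − N replicate 1 the pooled value passed, at -0.32 with an adjusted p of 0.0433 by the same edgeR test. Over the 18 settings with a recomputed fold change, that adjusted p ranged from 0.0115 by DESeq2 to 0.150 by edgeR.

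In bulk tissue, fewer cells of a type and less RNA per cell cannot be told apart, and markers of macrophages were also higher in L − N. All 6 macrophage markers (CD68, CD163, CSF1R, CD14, AIF1 and MRC1) were detected in every library. Their sum was 579, 1509 and 1536 CPM in L − N, and 573, 631 and 415 CPM in L + N. It was 376, 445 and 294 CPM in H − N, and 492, 569 and 415 CPM in H + N, with CD163, a scavenger receptor, the most abundant gene. Both L − N replicates 2 and 3 were far above the rest, while L − N replicate 1 lay just above L + N replicate 1 and below L + N replicate 2. In L + N against L − N, 2 of the 6 markers fell (CD14 and CD163). In H + N against L − N 3 fell (CD14, CSF1R and CD163), and in H − N against L − N 4 fell (CD68, CD14, CSF1R and CD163), all by edgeR. Over fiber, edgeR called 0 of the 6, with 6 at an unadjusted p under 0.05, 4 called by DESeq2 and 0 by limma-voom. With NCG pooled over fiber it called 0, with 2 at an unadjusted p under 0.05, 1 called by DESeq2 and 0 by limma-voom. For the interaction it called 0, with all 6 at an unadjusted p under 0.05, a median of 1.49, 2 called by DESeq2 and 0 by limma-voom. The part of macrophages in the values of OAZ2, OAZ1 and SAT1 was not tested.

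AZIN1 (gene ID 100158237, chromosome 4, 34221368 to 34257261) encodes antizyme inhibitor 1, a relative of ornithine decarboxylase without enzyme activity that binds antizyme and so frees the enzyme. Its level was 217, 211 and 227 CPM in L − N, and 209, 233 and 217 CPM in L + N. It was 253, 276 and 345 CPM in H − N, and 248, 256 and 297 CPM in H + N. All 6 HF libraries were above all 6 LF libraries, and the replicate 3 libraries of the HF groups were the highest. The L − N mean was 219 ± 7.95, the L + N mean 219.8 ± 12.1, the H − N mean 291 ± 48.3 and the H + N mean 267 ± 26.3 CPM (SD, n = 3 each). HF against LF gave a log2 fold change of 0.35 ± 0.0917 (SE), in 6 of 6 libraries, which did not pass (the quasi-likelihood F-test of edgeR with Benjamini-Hochberg adjustment, adjusted p = 0.0976). It passed by DESeq2 with an adjusted p of 0.0154, and over the 18 settings with a recomputed fold change the adjusted p ranged from this to 0.237. Without H − N replicate 3 and H + N replicate 3 the log2 fold change was 0.24.

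AZIN2 (gene ID 100144439, chromosome 6, 89346860 to 89385323), the antizyme inhibitor best known from brain and testis, had a low level. It was 7.004, 4.89 and 5.98 CPM in L − N, and 5.34, 5.71 and 4.25 CPM in L + N. In H − N it was 5.39, 6.66 and 2.48 CPM, and in H + N 5.21, 6.46 and 1.96 CPM. The replicate 3 libraries of the HF groups were the lowest of all 12, and all the groups overlapped. The log2 fold change of AZIN2 was -0.23 in HF against LF and -0.16 with NCG, neither of which passed by edgeR.

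**Figure D2:**
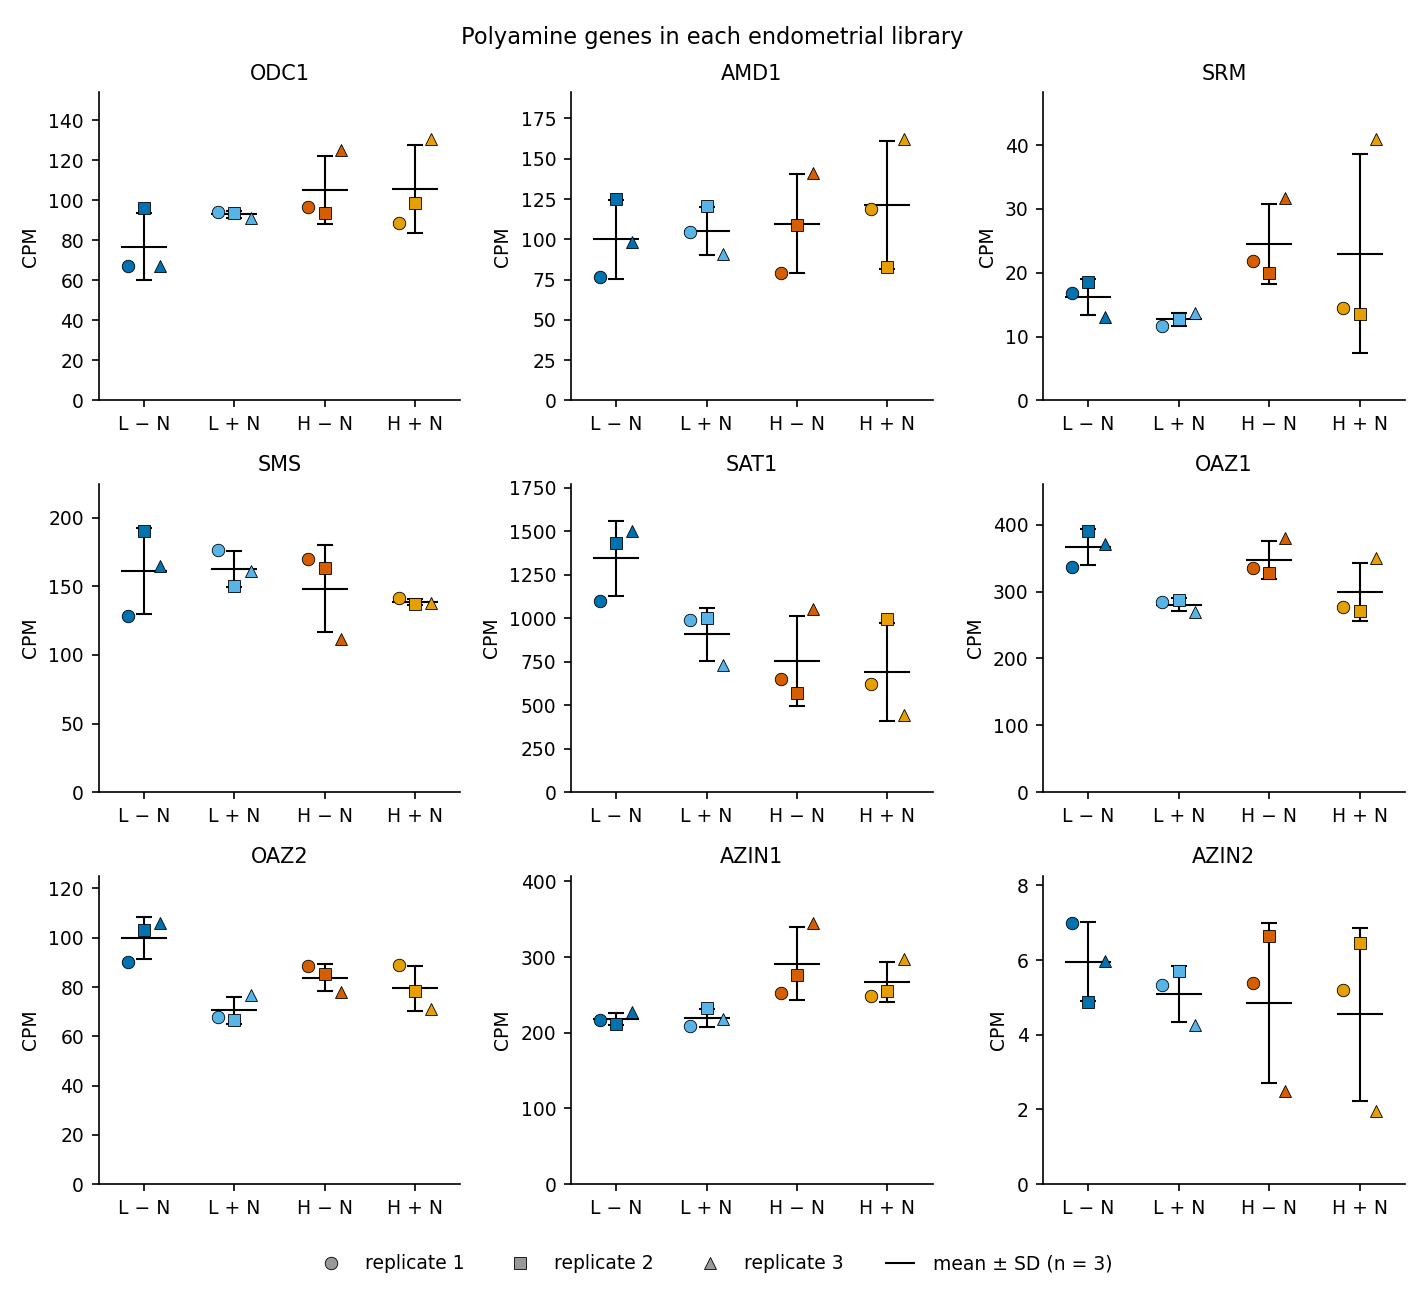
Level in CPM of the 9 tested polyamine genes in the 12 libraries by group, with a point for each library (its shape gives the replicate number) and bars for mean ± SD, n = 3. OAZ2 and SAT1 were higher in every L − N library than in any other library. The share of all genes that set L − N apart in this way is not given. In the single comparisons with L − N, the groups did not overlap in 25.4% to 35.3% of all genes. AZIN1 was higher in all HF than in all LF libraries, which did not overlap in 0.886% of all genes.

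AMD1 (gene ID 100155925, chromosome 1, 76839448 to 76863745) encodes S-adenosylmethionine decarboxylase, the source of the aminopropyl groups. Its level was 76.5, 125 and 98.4 CPM in L − N, and 104, 120.5 and 90.8 CPM in L + N. It was 79.4, 109 and 141 CPM in H − N, and 119, 82.9 and 162 CPM in H + N. The libraries of each group spread widely, from 76.5 to 162 CPM in all, and all the groups overlapped. HF against LF gave a log2 fold change of 0.17 ± 0.191 (SE) and NCG 0.11 ± 0.191, both smaller than their standard errors.

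SRM (gene ID 414385, chromosome 6, 71246895 to 71253534) encodes spermidine synthase. Its level was 16.9, 18.6 and 13.0 CPM in L − N, and 11.6, 12.8 and 13.7 CPM in L + N. It was 21.9, 20.04 and 31.7 CPM in H − N, and 14.4, 13.5 and 41.0 CPM in H + N. All H − N libraries were above all LF libraries, while in H + N only replicate 3 was high and the others lay in the range of LF. How many of all genes set H − N apart from both LF groups is not given. The L − N mean was 16.2 ± 2.83, the L + N mean 12.7 ± 1.01, the H − N mean 24.5 ± 6.24 and the H + N mean 23.0 ± 15.6 CPM (SD, n = 3 each). SRM had the highest log2 fold change of the members in HF against LF, 0.73 ± 0.266 (SE), which did not pass (the quasi-likelihood F-test of edgeR with Benjamini-Hochberg adjustment, adjusted p = 0.171). Leaving out H − N replicate 3 and H + N replicate 3 took it to 0.26. Leaving out H + N replicate 3 alone took H + N against L + N from 0.86 to 0.14, and the pooled effect of NCG from -0.22 to -0.58. That last value passed by the quasi-likelihood F-test of edgeR with Benjamini-Hochberg adjustment (adjusted p = 0.0469). In the RefSeq annotation a long noncoding RNA overlaps SRM, and the libraries were made to keep the strand, but whether the counting used it is not stated. Whether reads of that RNA are among the counts of SRM is therefore not known.

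SMS (gene ID 100153052, chromosome X, 18118332 to 18169396) encodes spermine synthase. Its level was 128, 190.4 and 165 CPM in L − N, and 177, 150.2 and 161 CPM in L + N. It was 169.6, 164 and 112 CPM in H − N, and 141, 137 and 138 CPM in H + N. The H + N libraries were close together and below all L + N libraries, and the other groups overlapped, with H − N replicate 3 the lowest of all. H + N against L + N gave a log2 fold change of -0.23 ± 0.174 (SE), with an adjusted p of 0.916 by the quasi-likelihood F-test of edgeR with Benjamini-Hochberg adjustment.

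SAT1 (gene ID 397645, chromosome X, 19908037 to 19910553) encodes spermidine/spermine acetyltransferase, which acetylates polyamines for export and oxidation and is the main step of breakdown. Its level was 1101, 1433 and 1503 CPM in L − N, and 988, 1003 and 731 CPM in L + N. It was 649, 569.5 and 1051 CPM in H − N, and 623, 998 and 447 CPM in H + N. Every library of the other 3 groups was below every L − N library, with 1051 CPM in H − N replicate 3 the closest, and those 3 groups overlapped. As for OAZ2, the share of all genes that set L − N apart in this way is not given. The L − N mean was 1345 ± 214, the L + N mean 907 ± 153, the H − N mean 757 ± 258 and the H + N mean 689 ± 281 CPM (SD, n = 3 each). H + N against L − N gave a log2 fold change of -0.97 ± 0.303 (SE), in 3 of 3 libraries, which did not pass (the quasi-likelihood F-test of edgeR with Benjamini-Hochberg adjustment, adjusted p = 0.0696). It passed by the same edgeR test without H − N replicate 3 (adjusted p = 0.0489) and, at -1.34, without H + N replicate 2 (adjusted p = 0.0287). Without H + N replicate 3, which stood apart, it was -0.73 and did not pass (adjusted p = 0.173 by edgeR). Over the 18 settings with a recomputed fold change that adjusted p ranged from 0.0145 by DESeq2 to 0.189 by edgeR.

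For SAT1, H − N against L − N gave -0.83 ± 0.302 and L + N against L − N -0.57 ± 0.301 on the log2 scale. Neither passed, with adjusted p of 0.125 and 0.246 by the quasi-likelihood F-test of edgeR with Benjamini-Hochberg adjustment. These comparisons share the L − N libraries, so a high value in L − N enters all 3 of them.

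AGMAT (gene ID 100519548, chromosome 6, 74773359 to 74784486) was named for agmatinase activity, a route from arginine to putrescine that bypasses ornithine. It had 0 to 6 reads per library, or at most 0.291 CPM, and was left out of the tests between groups by the filter on low counts. No difference between groups was therefore tested for AGMAT in the main fit. It entered only the setting with no filter on low counts, where it was not called. No limit of detection was computed. The 9 other members passed the filter, as did 15351 genes in all.

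The study's 2 by 2 design asks which genes respond to fiber, to NCG and to both. Among the 9 tested members, 0 were called for any difference among the 4 groups by the quasi-likelihood F-test of edgeR, against 6.96% of all genes tested. At an unadjusted p under 0.05 there were 4 members (OAZ1, OAZ2, AZIN1 and SAT1), against 27.3% of all genes. DESeq2 called the same 4 members and 22% of all genes, and limma-voom 0 members and 5.27% of all genes.

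For HF against LF, pooled over NCG, edgeR called 0 members and 0.0521% of all genes, which is 8 genes. SRM, SAT1, ODC1 and AZIN1 had an unadjusted p under 0.05, 4 members against 19.5% of all genes. DESeq2 called 1 member, AZIN1, and 7.33% of all genes, and limma-voom 0 members and 0.0195%. In 1 member, AZIN1, the HF and LF libraries did not overlap, against 0.886% of all genes. The median log2 fold change was 0.01 over the members and 0.02 over all genes tested, and 5 of 9 members had a positive value. SAT1 was the lowest at -0.61 ± 0.213 (SE).

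For NCG, pooled over fiber, edgeR called 0 members and 7.27% of all genes. OAZ1 and OAZ2 had an unadjusted p under 0.05, 2 members against 23.6% of all genes, and both were called by DESeq2, against 13.3% of all genes. By limma-voom the counts were 0 members and 7.28% of all genes. The libraries with and without NCG overlapped in all 9 members, and did not overlap in 3.99% of all genes. The members' median was -0.16, against -0.03 over all genes, and 2 of 9 members (ODC1 and AMD1) had a positive value.

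The interaction of fiber and NCG gave 0 calls among the members and 0% of all genes by edgeR, and the same by limma-voom. OAZ2 was the 1 member with an unadjusted p under 0.05, against 12.8% of all genes, and DESeq2 called 0 members and 2.14% of all genes. The members' median was 0.13, against -0.01 over all genes.

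H + N against L − N sets the combined diet beside the basal control. By edgeR, 0 members and 7.97% of all genes were called, and 5 members (SAT1, OAZ1, ODC1, AZIN1 and OAZ2) had an unadjusted p under 0.05, against 27.5% of all genes. DESeq2 called SAT1 and OAZ2, 2 members against 17.5% of all genes, and limma-voom 0 members against 6.5%. The groups did not overlap in 3 members (OAZ2, AZIN1 and SAT1), against 28% of all genes. The members' median was -0.22, against 0.02 over all genes, and 4 of 9 had a positive value.

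For H − N against L − N, edgeR called 0 members and 5.27% of all genes, and 3 members (SAT1, ODC1 and AZIN1) had an unadjusted p under 0.05, against 24.4% of all genes. SAT1 and AZIN1 were called by DESeq2, 2 members against 13.6%, and 0 members by limma-voom against 3.35%. The groups did not overlap in 4 members (OAZ2, AZIN1, SRM and SAT1), against 25.4% of all genes. The members' median was -0.08, against 0.03 over all genes.

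L + N against L − N was the comparison with a call, 1 member (OAZ2) against 9.6% of all genes by edgeR. OAZ1 and OAZ2 had an unadjusted p under 0.05, 2 members against 27.8% of all genes, and DESeq2 called both, against 18% of all genes. By limma-voom OAZ2 was called, 1 member against 9.17% of all genes. In 3 members (OAZ1, OAZ2 and SAT1) the groups did not overlap, against 35.3% of all genes. With 1 of 9 members called against 9.6% of all genes, the share was near the background. The members' median was -0.22, against -0.02 over all genes.

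Within the HF diet, H + N against H − N gave 0 members and 0% of all genes by edgeR, and 0 members had an unadjusted p under 0.05, against 8.67% of all genes. DESeq2 called 0 members and 0.319% of all genes, and limma-voom 0 members and 0%. The groups overlapped in all 9 members, against 13% of all genes whose groups did not. The members' log2 fold changes ran from -0.22 to 0.14. With NCG, H + N against L + N also gave 0 members and 0% by edgeR, and SRM was the 1 member with an unadjusted p under 0.05, against 4.68% of all genes. DESeq2 called 0 members and 0.0131% of all genes, limma-voom 0 members and 0%. Here AZIN1 and SMS did not overlap between the groups, 2 members against 11% of all genes.

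**Figure D3:**
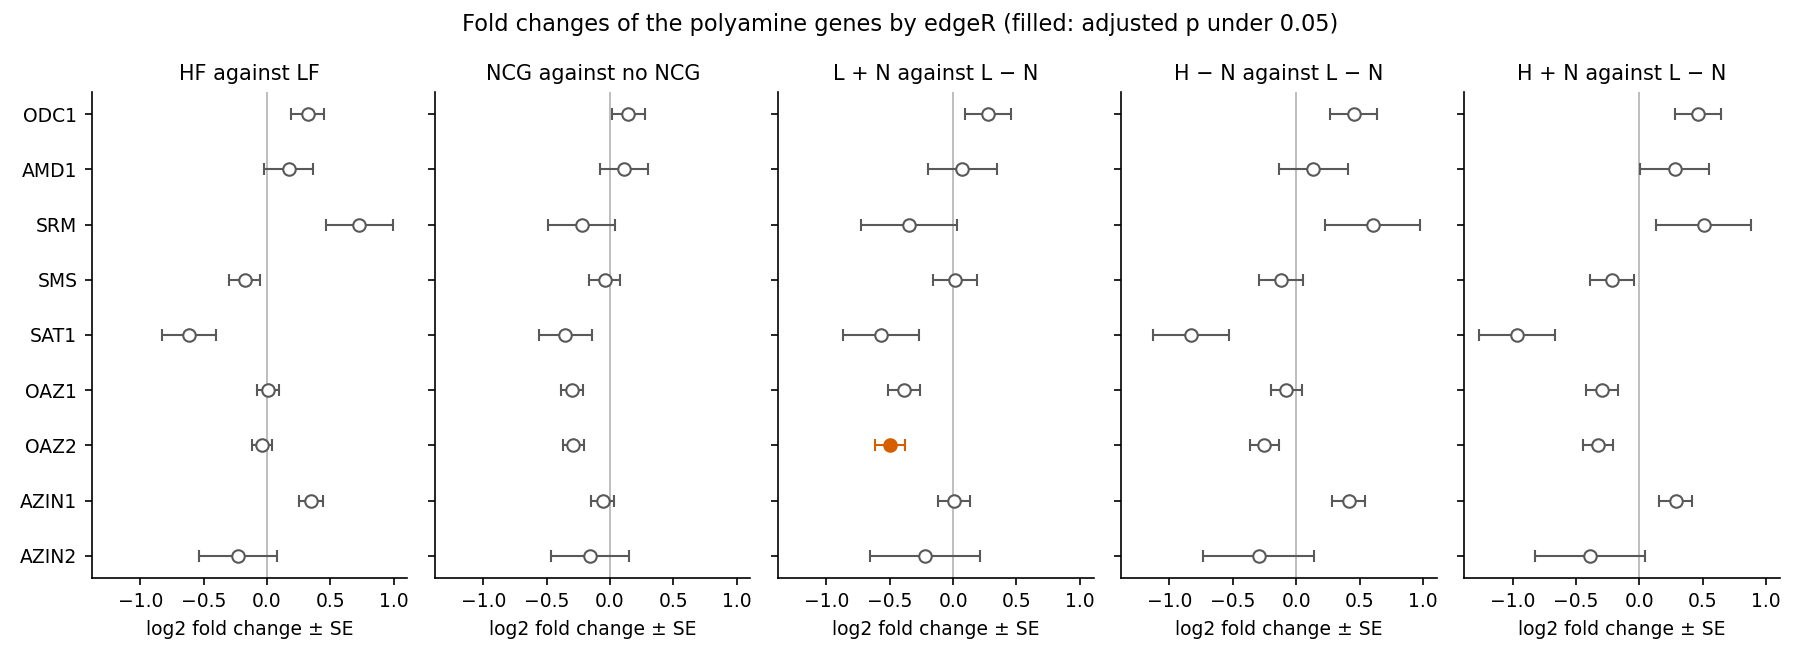
Log2 fold change of each tested polyamine gene in 5 comparisons, with points for the estimates by edgeR (filled where the adjusted p was under 0.05) and bars for 1 standard error. The 1 call was OAZ2 in L + N against L − N, at -0.50, and SAT1 lay below 0 in each comparison with L − N.

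Without both H − N replicate 3 and H + N replicate 3, a setting chosen after seeing that these libraries stood apart, edgeR called OAZ1 for NCG (log2 fold change -0.33, adjusted p = 0.0314). In L + N against L − N it then called both OAZ1 (-0.39, adjusted p = 0.0286) and OAZ2 (-0.50, adjusted p = 0.0195). With all libraries the log2 fold change of OAZ1 there was also -0.39. The share of all genes called under this setting is not given. Leaving out H + N replicate 3 alone also gave both calls in L + N against L − N, with an adjusted p of 0.0386 for OAZ1 by edgeR, which was 0.0739 with all libraries. In the other 7 comparisons 0 members were called by edgeR without both libraries, as with all 12. SAT1 in H − N against L − N moved from -0.83 to -1.14, with an adjusted p of 0.0532 by edgeR.

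Around the members, 37 further genes of the pathway were examined, of which 36 could be tested. By edgeR, arginine and ornithine metabolism held the most calls of the 7 lists, mostly from ASL in comparisons that share the L − N libraries. By DESeq2, the list of polyamine and arginine transport held more. ASL, the argininosuccinate lyase that forms arginine, had 16.2, 19.9 and 19.5 CPM in L − N, and 12.5, 13.3 and 10.5 CPM in L + N. It had 8.601, 9.71 and 8.69 CPM in H − N, and 9.16, 10.5 and 7.97 CPM in H + N. The L − N libraries were the highest 3 of the 12, and the share of all genes with this pattern is not given. ASL fell against L − N in L + N (log2 fold change -0.61), H − N (-1.04) and H + N (-1.01), with adjusted p of 0.0466, 0.0192 and 0.0158 by the quasi-likelihood F-test of edgeR with Benjamini-Hochberg adjustment. GATM, which uses arginine to form the precursor of creatine, fell in H − N against L − N, from 71.8 ± 14.2 to 33.3 ± 11.8 CPM (SD, n = 3). Its log2 fold change was -1.11, with an adjusted p of 0.0495 by the quasi-likelihood F-test of edgeR.

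In H − N against L − N, ATP13A4, a P5B-type ATPase of the family that carries polyamines, rose from 2.15 ± 0.980 to 13.1 ± 3.82 CPM (SD, n = 3). This was a log2 fold change of 2.60, with an adjusted p of 0.0232 by the quasi-likelihood F-test of edgeR. MAT2B, the regulatory subunit of methionine adenosyltransferase, fell in the same comparison from 194 ± 21.6 to 123 ± 13.0 CPM (log2 fold change -0.66, adjusted p = 0.0372 by edgeR). In all, 1 pathway gene rose and 3 fell in H − N against L − N, and 1 fell in each of the other comparisons with L − N, of 36 tested. Of all genes edgeR called 5.27% in H − N, 7.97% in H + N and 9.6% in L + N against L − N. The 1 of 36 in H + N and in L + N was a lower share than that of all genes, and the 4 of 36 in H − N a higher one.

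In each of HF against LF, NCG, the interaction, H + N against H − N and H + N against L + N, edgeR called 0 of the 36 pathway genes. At an unadjusted p under 0.05 they were 8, 5, 6, 1 and 2 genes in that order, against 19.5%, 23.6%, 12.8%, 8.67% and 4.68% of all genes. As shares of the 36 they were below those of all genes for NCG and for H + N against H − N, and somewhat above in the other 3. DESeq2 called 6 in HF against LF, 1 in the interaction and 0 in the other 3, and limma-voom 0 in all 5. Of all genes DESeq2 called 7.33% in HF against LF, 2.14% in the interaction and 13.3% with NCG. It called 0.319% in H + N against H − N and 0.0131% in H + N against L + N. Of the lists with 0 calls by edgeR in these 8 comparisons, polyamine oxidation and acetylation was led by SMOX, the spermine oxidase, at 12.1 to 33.4 CPM. The antizyme OAZ3, known from the testis, had 0.955 to 8.38 CPM. EIF5A, the translation factor that receives hypusine from spermidine, had 236 to 450.1 CPM, and MAX, the partner of MYC at the ODC1 promoter, had 131 to 202.5 CPM. The lists of SMOX, OAZ3 and EIF5A also had 0 genes at an unadjusted p under 0.05 and 0 calls by DESeq2 and limma-voom. Of the 5 transcription factors, at most 2 had an unadjusted p under 0.05 in a comparison and at most 1 was called by DESeq2, with 0 by limma-voom. DESeq2 called MYCN in HF against LF and in H − N against L − N, and MAX in L + N against L − N. In the comparisons of H + N, H − N and L + N with L − N, DESeq2 called 6 of the 36 pathway genes each, and limma-voom 1, 3 and 1. The shares of all genes were 17.5%, 13.6% and 18% by DESeq2, and 6.5%, 3.35% and 9.17% by limma-voom.

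Of the 12 genes of dividing cells, edgeR called 9 with NCG pooled over fiber, against 7.27% of all genes. The sum of the 12 was 180.2, 376 and 173 CPM in L − N, and 494, 580.1 and 692 CPM in L + N. It was 378, 381 and 379.6 CPM in H − N, and 486, 517 and 692 CPM in H + N, with MKI67 the most abundant. All 6 libraries with NCG were above all 6 without. By edgeR, 9 of the 12 rose with NCG (CCNA2, TOP2A, CDK1, MKI67, CCNB1, AURKA, PLK1, BUB1 and RRM2), with a median log2 fold change of 1.06 over the list, against -0.03 over all genes. The counts were 8 in L + N against L − N, 7 in H + N against L − N and 1 (TOP2A) in H − N against L − N. Of all genes edgeR called 9.6%, 7.97% and 5.27% there, in the same order. Over fiber, edgeR called 0, with 1 gene at an unadjusted p under 0.05 and 0 by DESeq2 and limma-voom. Within the HF diet, H + N against H − N gave 0 calls by edgeR, DESeq2 and limma-voom, with 3 genes at an unadjusted p under 0.05 and a median log2 fold change of 0.62. The interaction also gave 0 calls by edgeR, DESeq2 and limma-voom, with 4 genes at an unadjusted p under 0.05 and a median of -0.80. The means of OAZ1 and OAZ2 were lower with NCG on both diets, and the part of dividing cells in their values was not tested.

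**Figure D4:**
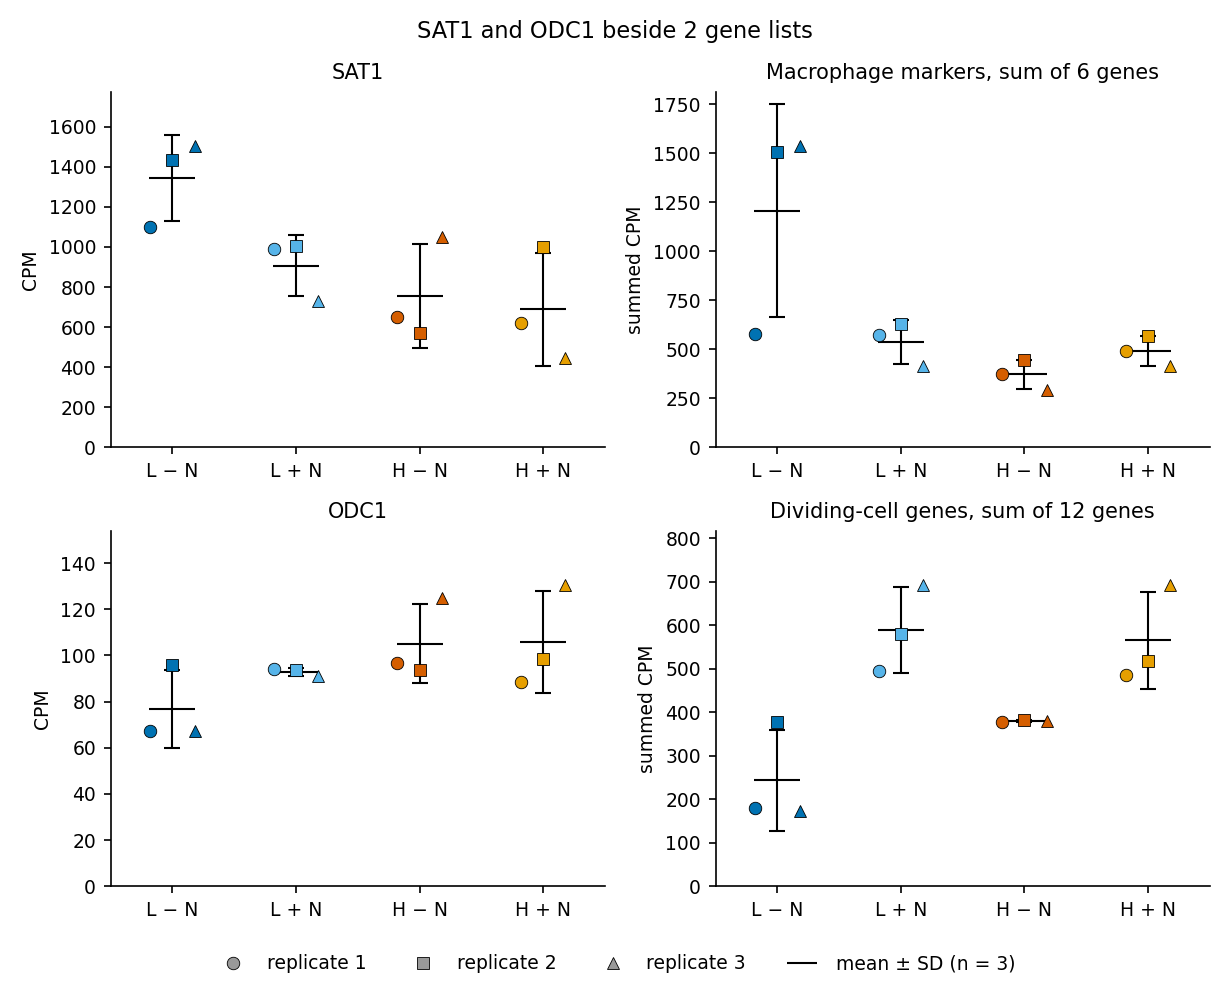
Level in CPM of SAT1 and ODC1 in each of the 12 libraries, by group, beside the summed CPM of the macrophage markers and of the genes of dividing cells, with bars for mean ± SD (n = 3). The macrophage sum was highest in L − N replicates 2 and 3, at 1509 and 1536 CPM, and the sum for dividing cells was higher in all libraries with NCG than in all without.

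The other marker lists were given by their sums over the 12 libraries. The epithelial list (8 of 8 detected, led by CDH1) summed to 1022 to 2360.1 CPM, highest in H − N replicate 3, and CDH1 rose in H − N against L − N by edgeR. The stromal list (7 of 7, led by COL3A1) summed to 22554 to 50720.2 CPM, again highest in H − N replicate 3, with H + N replicate 3 at 48227 CPM. VIM of this list fell in all 3 comparisons with L − N and in HF against LF by edgeR, and THY1 in that of H − N. The smooth muscle list (6 of 6) was led by MYH11. Its sum was 5197, 1614 and 2001 CPM in L − N, and 1101, 1228 and 1002 CPM in L + N. It was 797, 1514 and 1595 CPM in H − N, and 1415, 1469.5 and 1494 CPM in H + N. Every sum of the other 3 groups was below every L − N sum, by a narrow margin in H − N replicate 3. In L + N against L − N, where OAZ2 was called, the 6 fold changes were negative. Their median log2 value was -1.59, with all 6 at an unadjusted p under 0.05. EdgeR and limma-voom called 2 of them (TAGLN and ACTA2 by edgeR) and DESeq2 5. The smooth muscle median was -1.18 in H + N against L − N and -1.06 in H − N against L − N. In each of these, 3 had an unadjusted p under 0.05, edgeR and limma-voom called 0 and DESeq2 2. With NCG pooled over fiber the median was -0.83, and edgeR called 0, with 5 at an unadjusted p under 0.05, 1 called by DESeq2 and 0 by limma-voom. For the interaction it was 1.64, with 3 at an unadjusted p under 0.05, 1 called by DESeq2 and 0 by edgeR and limma-voom. The endothelial list (6 of 6, 826 to 1641 CPM) was led by VWF, and PECAM1 fell in H + N and in L + N relative to L − N, as CDH5 did in L + N, and PECAM1 also fell with NCG pooled over fiber. Sums were 45.5 to 163 CPM for T and NK cells, led by CD2, and 115 to 802 CPM for B and plasma cells, led by JCHAIN. Of the blood genes 3 of 4 were in the table (HBA was not), led by HBB. Their sum was 753, 62.6 and 514 CPM in L − N, and 26.5, 52.9 and 81.9 CPM in L + N. It was 32.2, 55.3 and 31.8 CPM in H − N, and 28.1, 293 and 212 CPM in H + N. L − N replicates 1 and 3 were the highest. L − N replicate 2 was above all of H − N and below L + N replicate 3 and H + N replicates 2 and 3. In L + N against L − N the median log2 value was -3.04, with all 3 blood genes at an unadjusted p under 0.05. There edgeR called 1 of them (AHSP, which fell), DESeq2 2 and limma-voom 1. In H − N against L − N the median was -3.48, and edgeR called 0, with 3 at an unadjusted p under 0.05, 2 called by DESeq2 and 0 by limma-voom. In H + N against L − N it was -1.10, and edgeR, DESeq2 and limma-voom each called 0, with 0 at an unadjusted p under 0.05. The placental list summed to 97.8 to 219.7 CPM, and its gene GATA2 rose in H − N against L − N. The sum was 55.9 to 135 CPM for the liver and kidney list. Genes of the squamous epithelium of the cervix, led by TP63, summed to 1.01 to 14.6 CPM, with KRT14 and KRT13 not in the table. The shares of all genes called in these comparisons are those given above. Whether the cell types behind these lists had a part in the members' values was not tested.

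Relations of ODC1 with the other 9 members were computed across libraries on log2 CPM. AGMAT was among the 9, although with 0 to 6 reads per library its values were set largely by the prior count of 2. Because H − N replicate 3 and H + N replicate 3 lay apart from the rest, the relations were computed with and without this pair. Over the 10 other libraries 0 of the 9 relations passed, with Pearson's r of 0.301 for AZIN1, -0.393 for AZIN2, 0.306 for AMD1 and 0.133 for SRM (permutation test, two-sided, Benjamini-Hochberg adjusted over 9 relations, adjusted p = 0.454, 0.454, 0.454 and 0.726). Over all 12 libraries those 4 passed the permutation test, with r of 0.698 for AZIN1 (p = 0.0122), -0.786 for AZIN2 (p = 0.00513), 0.671 for AMD1 (p = 0.0157) and 0.686 for SRM (p = 0.0140). The adjusted p was 0.0354 for each of them. Spearman's rho was 0.573, -0.510, 0.462 and 0.517 in the same order, with permutation p of 0.0559, 0.0919, 0.135 and 0.0897 and adjusted p of 0.276, 0.276, 0.304 and 0.276.

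Leaving out L − N replicates 1 and 3, the 2 libraries farthest from the median of ODC1 on the log2 scale, gave r of 0.771, -0.888, 0.643 and 0.876 for AZIN1, AZIN2, AMD1 and SRM. With the group means subtracted, r was 0.565, -0.809, 0.731 and 0.793 (exact permutation test within groups, adjusted p = 0.214, 0.0972, 0.148 and 0.0972). The relations of ODC1 with these 4 members thus did not pass without the 2 replicate 3 libraries of the HF groups. Those libraries had the highest ODC1 values and were chosen after seeing the data. Leaving them out narrows the range of ODC1, so the lower r cannot show what the relations rest on. The other 5 members had an r of -0.547 to 0.0752, with adjusted p from 0.118 to 0.849 by the permutation test. Among them OAZ1 changed most with the group means subtracted, from 0.0752 to 0.862, which was the highest of the 9 members in size (exact permutation test within groups, p = 0.0170, adjusted p = 0.0972). Without the replicate 3 libraries of the HF groups, but with group means kept, its r was -0.407. The r of the remaining 4 with group means subtracted ran from -0.453 for OAZ2 to 0.0848 for SAT1, with adjusted p from 0.384 to 0.932 by the exact permutation test.

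**Figure D5:**
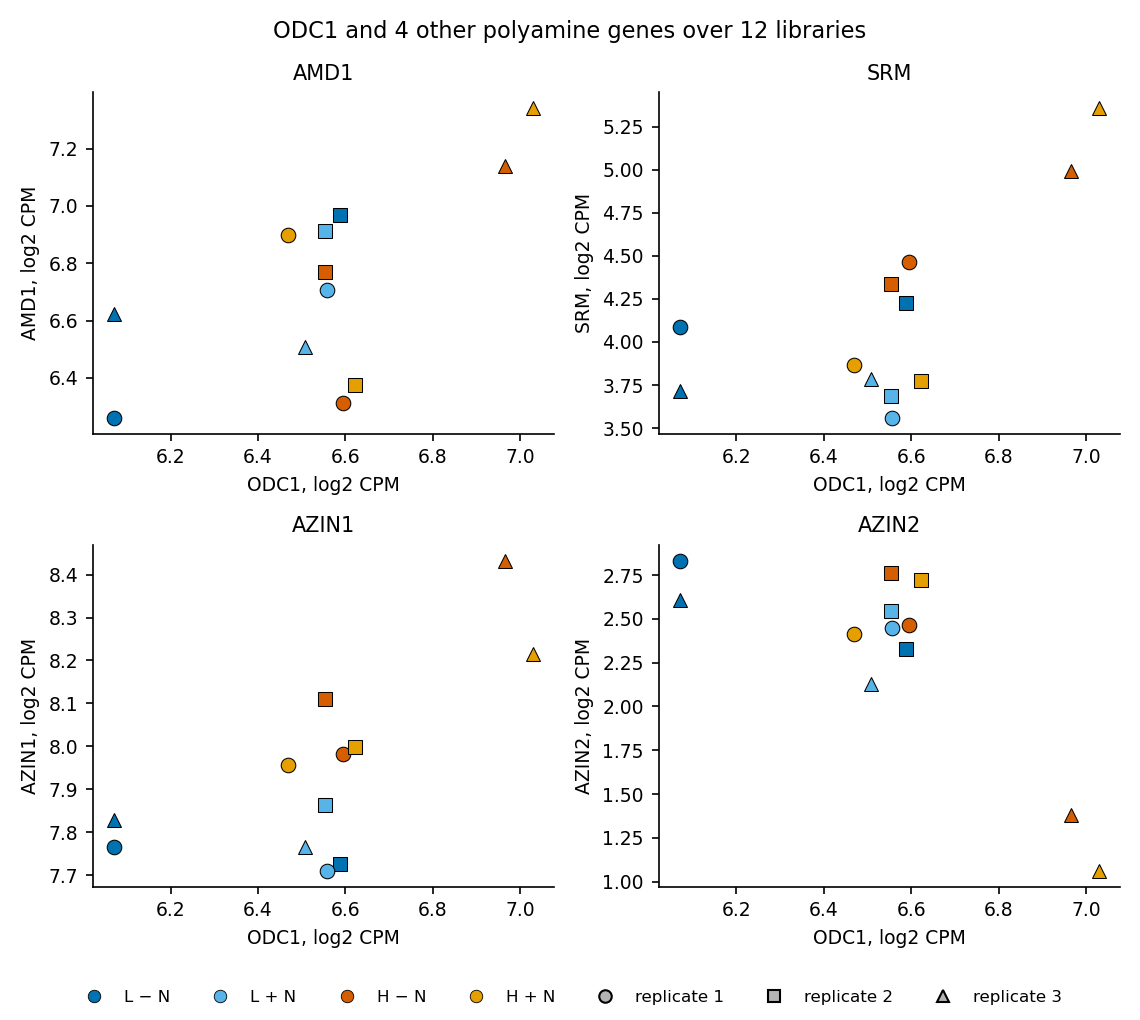
Log2 CPM of ODC1 against log2 CPM of AMD1, SRM, AZIN1 and AZIN2, with a point for each of the 12 libraries, coloured by group and shaped by replicate. The replicate 3 libraries of H − N and H + N lie at the high end of ODC1, and without them r was 0.301 for AZIN1, -0.393 for AZIN2, 0.306 for AMD1 and 0.133 for SRM.

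The 5 genes most like ODC1 over the 12 libraries, by Pearson's r of log2 CPM among genes with a symbol and a mean of at least 1 CPM, were SELENOI (r = 0.973), HNRNPM (0.923), MTPAP (0.914), BMS1 (0.908) and CSTF2 (0.902). SELENOI had 6.49 to 13.4 CPM and HNRNPM 258 to 431 CPM. These values are a description with no test.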

How the data were processed

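Poly(A) RNA of endometrium was sequenced in 12 libraries, 3 per group, and groups were read from the library titles. The submitters' processing notes name fastp 0.22.0, HISAT2 2.1.0 and HTSeq 0.9.1 with Sscrofa11.1, and do not state the counting strand or the rule for reads that map to several places. The authors deposited raw read counts per gene, without normalization. The authors also deposited FPKM values, which could be recomputed from the counts, the library totals and the lengths of the genes to within 1.91e-05 percent and were used here only for the order of levels.

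Counts were analysed with DESeq2 1.42.0, edgeR 4.0.16 and limma 3.58.1 under R 4.3.3, and in Python 3.11.15 with numpy 2.4.6, pandas 2.3.3, scipy 1.17.1 and matplotlib 3.10.9. filterByExpr on the 4 groups kept 15351 genes. A quasi-likelihood model with TMM factors used all 12 libraries and estimated 1 mean for each group (8 residual degrees of freedom, biological coefficient of variation 0.270), and 9 comparisons were tested as contrasts of these means with Benjamini-Hochberg adjustment across all genes. Log2 CPM used a prior count of 2. Correlations used 100000 permutations, and 1296 exact ones within groups. The tests between groups were tried on simulated counts with changes larger than those of the members, so changes of the members' size were not covered. The correlation steps were not simulated.

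All 10 members were named. From 7 lists of other pathway genes, those called in a described comparison were named, and otherwise the most abundant gene of a list. Markers of 13 tissues and cell types and 12 genes of dividing cells were given beside the members. The members and lists were chosen with earlier results of these data known. Alternatives were RLE factors, no filter, DESeq2, limma-voom, a replicate block, an additive model, each comparison's groups alone, a call rule with an absolute log2 fold change above 1, leaving out each library, and leaving out H − N replicate 3 with H + N replicate 3, which was chosen after seeing the data. Replicate numbers were not taken as pairs.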

Additional observations from a re-analysis of the deposited data

How the results depend on the processing

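The 18 log2 fold changes of members with an unadjusted p under 0.05 were recomputed under 18 settings each. Of 324 values 304 kept their direction and their side of the threshold, 5 lost a call, 15 gained one and 0 changed sign. Of 178 recomputed counts of members called, 159 were as given above, 6 were lower and 13 were higher.

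With DESeq2 the count of members called was 4 for any difference among the groups, 1 for HF against LF, and 2 for each of NCG, H + N against L − N, H − N against L − N and L + N against L − N. Without H − N replicate 3 and H + N replicate 3, chosen after seeing the data, it was 1 for NCG and 2 for L + N against L − N. With an absolute log2 fold change above 1 also asked for, L + N against L − N had 0 by edgeR. Leaving out 1 library at a time, the count ranged from 0 to 2 for NCG, 0 to 1 for H + N against L − N and 0 to 2 for L + N against L − N, and was 0 throughout by edgeR in the other 6 comparisons. Shares of all genes called without these libraries are not given, so a gained or lost call cannot be read as particular to the members. With RLE factors, no filter, limma-voom or the 2 groups alone, OAZ2 was the 1 member called in L + N against L − N. The cause was not tested.

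As a replicate block, the replicate numbers gave 1 member called in L + N against L − N (OAZ2, log2 fold change -0.50, adjusted p = 0.0490 by edgeR) and 0 in the other 8 comparisons. Libraries with the same number in different groups correlated at -0.322 to 0.283 after group means were subtracted, with 3 of 18 pairs above 0.1. The highest value was that of H − N replicate 3 with H + N replicate 3. With 3 libraries per group, these values cannot decide whether libraries of the same number share a block.

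The correlations of ODC1 with AZIN1, AZIN2, AMD1 and SRM no longer passed with group means subtracted (r = 0.565, -0.809, 0.731 and 0.793) or without both replicate 3 libraries (0.301, -0.393, 0.306 and 0.133). The cause was not tested. AGMAT, with 0 to 6 reads per library, was left out of the tests between groups except in the setting with no filter. No limit of detection was computed for any member.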
